A study of Homo sapiens with 12 samples.

Results

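The expression of 10 genes that encode neuronal RNA-binding and splicing regulators was followed in 2 neuroblastoma cell lines kept with an inhibitor of RNA methylation. The genes were taken by name from the count tables as ELAVL2, ELAVL3, ELAVL4, RBFOX1, RBFOX2, RBFOX3, NOVA1, NOVA2, PTBP1 and PTBP2, and all 10 were found among 19923 counted genes. SK-N-BE2 and NGP are established human lines with amplified MYCN and, per the labels, a wild-type genotype. Each line was grown for 6 days with STM2457, which blocks the methyltransferase METTL3, or with its solvent DMSO. The dose was 12 µM of STM2457 for SK-N-BE2 and 1 µM for NGP. The 4 groups were SK-N-BE2 with DMSO, SK-N-BE2 with STM2457, NGP with DMSO and NGP with STM2457, each with 3 replicates, 12 libraries of polyadenylated RNA in all. The dose, the line and a folder named in the file headers, taken here as the sequencing run, change together. A difference between the lines therefore cannot be told apart from one of dose or run. Nothing in the labels says whether the replicates were separate cultures, and p-values then measure only the spread between these libraries.

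The ELAVL2, ELAVL3 and ELAVL4 proteins, also called HuB, HuC and HuD, bind U-rich stretches of messenger RNA in neurons and regulate its stability and splicing. RBFOX and NOVA proteins bind short motifs in pre-mRNA and promote or block the use of nearby exons in neurons. PTBP1 represses neuronal exons in dividing cells and keeps PTBP2 low through a PTBP2 exon whose skipping leads to decay of the transcript. During neuronal differentiation PTBP1 typically falls, PTBP2 rises, and the neuronal ELAVL, NOVA and RBFOX genes come on. METTL3 methylates adenosine within short RNA motifs, of which GGACU is a preferred form, and reader proteins then alter the stability of the marked RNA.

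The motif of the enzyme that STM2457 blocks was looked for in the members' transcripts, since the methylation itself was not measured in these libraries. In the canonical transcript of each gene (GENCODE 44, GRCh38) the letters GGACT, the DNA spelling of GGACU, were counted on the transcript strand only. They occurred at least 1 time in each of the 10 members. RBFOX2 held 6 matches, all in its 3′ UTR, and NOVA2 held 8, likewise all in the 3′ UTR. ELAVL3 held 6, RBFOX3 and NOVA1 held 4 each, ELAVL2 and ELAVL4 held 3 each, RBFOX1 and PTBP1 held 2 each, and PTBP2 held 1. Per kilobase the matches ran from 0.301 in PTBP2 to 1.27 in ELAVL3, against a median of 0.931 and quartiles of 0.566 and 1.39 over 14391 tested genes. A match is a description of the letters, not of a methylated site.

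The sites of the 5 members that rose in a line are shown with 8 bases on either side, 5′ to 3′ in DNA letters, with GGACT in capitals. These 5 were chosen by their response, and their matches per kilobase, from 0.301 to 0.832, all lay below the median of tested genes. The members that fell in a line had 0.41 (RBFOX1), 0.572 (NOVA1), 0.985 (NOVA2) and 1.26 (RBFOX3), and their sites are not shown. Each window equals the genome sequence at the position given.
ELAVL2 site 1, exon 1 of 7, 5′ UTR, chr9:23825963-23825983, minus strand: ttagcattGGACTttggggtc
ELAVL2 site 2, exon 4 of 7, coding, chr9:23705002-23705022, minus strand: atgtcagcGGACTtccaaaaa
ELAVL2 site 3, exon 7 of 7, 3′ UTR, chr9:23691128-23691148, minus strand: tgtcctgaGGACTtgaattta
ELAVL4 site 1, exon 3 of 7, coding, chr1:50177155-50177175, plus strand: ctttaaatGGACTcagactcc
ELAVL4 site 2, exon 7 of 7, 3′ UTR, chr1:50201292-50201312, plus strand: tcaaccatGGACTttataagc
ELAVL4 site 3, exon 7 of 7, 3′ UTR, chr1:50203260-50203280, plus strand: tgtagacaGGACTgttgtttt
RBFOX2 site 1, exon 14 of 14, 3′ UTR, chr22:35741259-35741279, minus strand: catgacctGGACTttctgtac
RBFOX2 site 2, exon 14 of 14, 3′ UTR, chr22:35740988-35741008, minus strand: aaagaagtGGACTggggcaca
RBFOX2 site 3, exon 14 of 14, 3′ UTR, chr22:35740530-35740550, minus strand: gaggaaagGGACTttgggggg
RBFOX2 site 4, exon 14 of 14, 3′ UTR, chr22:35739827-35739847, minus strand: cagcagagGGACTtggtcctc
RBFOX2 site 5, exon 14 of 14, 3′ UTR, chr22:35739779-35739799, minus strand: tgacctgaGGACTccactcac
RBFOX2 site 6, exon 14 of 14, 3′ UTR, chr22:35739633-35739653, minus strand: ttttctggGGACTgataagtg
PTBP1 site 1, exon 13 of 15, coding, chr19:808653-808673, plus strand: ctgaccaaGGACTacggcaac
PTBP1 site 2, exon 15 of 15, 3′ UTR, chr19:812277-812297, plus strand: ctgtacctGGACTtcgaataa
PTBP2 site 1, exon 12 of 14, coding, chr1:96812793-96812813, plus strand: ctcgagagGGACTtgatgatc

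Promoter windows are shown for PTBP1 and PTBP2, which rose together in NGP, and for NOVA2, which fell there. They run from 250 bases before to 50 after a RefSeq transcript start (GRCh38.p14). RefSeq entries matched 8 of the 10 members, and ELAVL3 and RBFOX2 had none. Capitals mark GGGCGG, the GC box, and CCAAT, on either strand. Of all 35116 promoter windows, 45.0% held GGGCGG and 34.6% held CCAAT.
PTBP1 promoter, chr19:797202-797501, plus strand: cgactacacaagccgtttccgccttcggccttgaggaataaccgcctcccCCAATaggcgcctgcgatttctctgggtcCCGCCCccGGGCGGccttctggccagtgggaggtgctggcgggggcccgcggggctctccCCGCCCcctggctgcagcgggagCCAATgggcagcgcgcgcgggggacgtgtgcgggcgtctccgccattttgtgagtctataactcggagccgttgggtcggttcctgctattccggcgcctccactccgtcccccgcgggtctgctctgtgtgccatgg
PTBP2 promoter, chr1:96722388-96722687, plus strand: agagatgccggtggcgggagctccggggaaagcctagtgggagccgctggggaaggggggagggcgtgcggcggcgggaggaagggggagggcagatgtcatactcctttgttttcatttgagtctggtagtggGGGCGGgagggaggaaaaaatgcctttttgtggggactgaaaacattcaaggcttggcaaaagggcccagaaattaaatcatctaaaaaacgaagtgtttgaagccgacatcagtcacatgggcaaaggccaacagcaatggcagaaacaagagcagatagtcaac
NOVA2 promoter, chr19:45973816-45974115, minus strand: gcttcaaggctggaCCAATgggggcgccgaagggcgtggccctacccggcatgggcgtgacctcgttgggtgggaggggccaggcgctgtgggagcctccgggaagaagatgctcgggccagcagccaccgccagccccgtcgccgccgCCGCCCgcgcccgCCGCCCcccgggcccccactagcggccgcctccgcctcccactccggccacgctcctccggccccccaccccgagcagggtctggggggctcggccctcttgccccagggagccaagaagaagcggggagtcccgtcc

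The PTBP1 window shown held 3 matches to GGGCGG and 2 to CCAAT, the PTBP2 window 1 and 0, and the NOVA2 window 2 and 1. Their GC content was 69.3%, 54.0% and 76.7%, against a median of 58.7% over all windows. The letters CAGCACC and GGACAG, found at the ends of the site bound by the repressor REST, occurred in 7.75% and 20.5% of all windows on either strand. Neither occurred in the PTBP2 and NOVA2 windows, and the PTBP1 window held 1 match to CAGCACC. No match says only that these letters are not in this window.

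The libraries held between 47242379 and 58159937 counted reads. A fragment could add 2 to a count, so counting error is understated where it is read from the counts. Of 9 markers of sympathetic neuroblastoma analysed, 9 reached a mean of 1 CPM (counts per 1000000 reads) in both SK-N-BE2 groups and 8 in both NGP groups. The exception was TH, the rate-limiting enzyme of catecholamine synthesis, at 1.13 CPM or less in NGP. The summed level of 5 fibroblast markers moved with STM2457, from between 105 and 120 CPM to between 191 and 205 CPM in SK-N-BE2 and from between 56.8 and 69.8 CPM to between 275 and 309 CPM in NGP. COL1A2, one of these markers, was at 0.117 CPM or less in every library. The 3 Schwann and glial markers analysed summed to at most 5.11 CPM, the 4 immune markers to at most 7.41 CPM, the 3 endothelial markers to at most 11.2 CPM and the 3 epithelial markers to at most 2.45 CPM. SOX10, which defines the glial lineage, was at 0 reads in the NGP DMSO libraries. The part of other cell types in the results was not tested, and fewer cells of a type and less RNA per cell cannot be told apart in bulk samples.

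Among the libraries, NGP DMSO replicate 1 differed most from its group. The chi-square per degree of freedom between replicates was 92.6 and 60.8 for its pairs with the other NGP DMSO libraries, and between 2.77 and 41.2 for all other pairs. ELAVL2 measured 49.5 CPM there against 69.6 and 68.0 CPM, and RBFOX2 measured 50.5 CPM against 110 and 105 CPM. NGP STM2457 replicate 2 stood apart for 3 members, with PTBP1 at 822 CPM against 589 and 586, RBFOX3 at 24.6 CPM against 14.1 and 14.7, and ELAVL3 at 257 CPM against 173 and 176. Where leaving out either library changed a call of a member, the value without it is given beside the result.

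**Figure D1:**
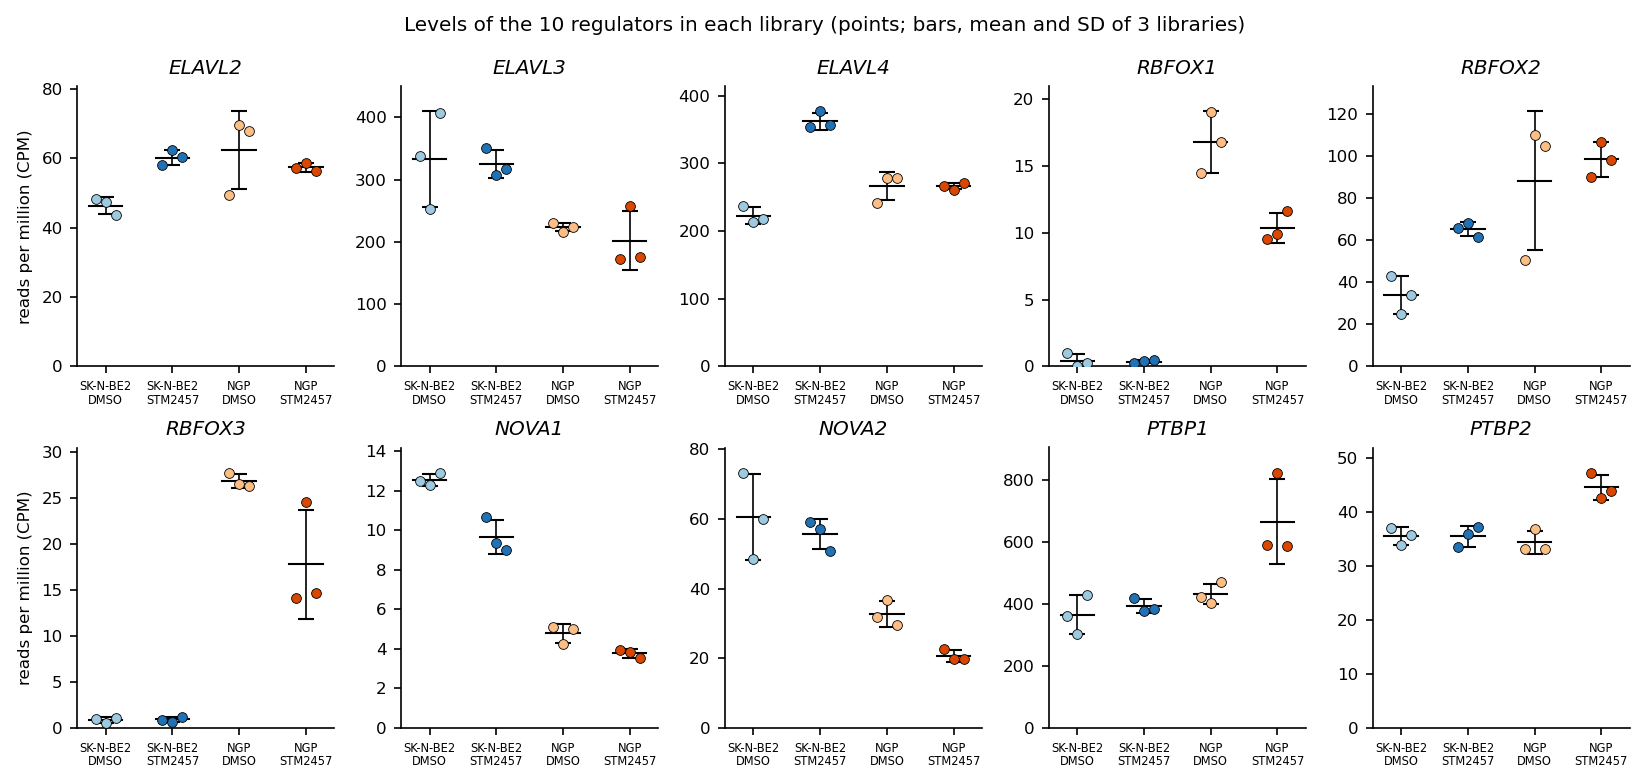
CPM of each of the 10 regulators (1 panel a gene, linear axes from 0) in the 12 libraries. Points are libraries, long bars are group means and whiskers are the SD of 3 libraries. In SK-N-BE2 the STM2457 points of ELAVL2, ELAVL4 and RBFOX2 lie above all DMSO points, and in NGP those of PTBP1 and PTBP2 do.

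How far the lines already differed in these regulators was asked of the DMSO libraries. Both lines carried the neuronal ELAVL genes, RBFOX2, NOVA2 and both PTBP genes, but RBFOX1 and RBFOX3 were close to absent in SK-N-BE2. On the CPM scale RBFOX3, known as the neuronal nuclear antigen NeuN, measured 1.01, 0.483 and 1.07 in the SK-N-BE2 DMSO replicates and 27.7, 26.5 and 26.3 in those of NGP. RBFOX1 measured 1.01, 0.0403 and 0.229 CPM in SK-N-BE2, from 58, 2 and 12 reads, and 14.5, 19.1 and 16.8 CPM in NGP. For both genes the lines did not overlap, and the 3 SK-N-BE2 libraries of RBFOX1 spread widely at few reads.

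In the fit over 12 libraries, 8 of the 10 members differed between the lines with DMSO at an edgeR quasi-likelihood adjusted p under 0.05, 3 higher and 5 lower in SK-N-BE2. Of all 14731 genes tested, 71.1% passed, 35.7% higher and 35.4% lower, so a difference between these lines was common among genes in general. The members' median log2 difference, SK-N-BE2 minus NGP, was -0.25, against 0.00 over all genes. RBFOX1 was lower in SK-N-BE2, at a log2 difference of -5.24 (SE 0.495, adjusted p 2.80e-07 by edgeR) and RBFOX3 by -4.96 (SE 0.30, adjusted p 1.83e-09 by edgeR). RBFOX2, the member of its family most widely expressed outside neurons, was lower by -1.38 (SE 0.24, adjusted p 0.000132 by edgeR). The opposite held for the NOVA genes: NOVA1 was higher in SK-N-BE2 by 1.39 (SE 0.13, adjusted p 2.58e-07 by edgeR) and NOVA2 by 0.89 (SE 0.14, adjusted p 4.94e-05 by edgeR).

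The ELAVL genes differed less and not all one way. ELAVL3 was higher in SK-N-BE2 by 0.57 (SE 0.17, adjusted p 0.00643 by edgeR), while ELAVL2 was lower by -0.43 (SE 0.11, adjusted p 0.00392 by edgeR). ELAVL4 was lower by -0.26 (SE 0.08, adjusted p 0.0120 by edgeR), a call that was lost without SK-N-BE2 DMSO replicate 2 or 3 or NGP DMSO replicate 3 (adjusted p up to 0.0700 by edgeR). PTBP1 and PTBP2 did not pass the test, with log2 differences of -0.24 (SE 0.14, adjusted p 0.141 by edgeR) and 0.05 (SE 0.09, adjusted p 0.626 by edgeR). PTBP1 was called without SK-N-BE2 DMSO replicate 3 (-0.35, adjusted p 0.0430 by edgeR). Without NGP DMSO replicate 1 the count of members was again 8.

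Levels of different genes were compared per length, as CPM per kilobase of the exon length in the files. That length joins the exons of all isoforms and can far exceed 1 transcript, as for PTBP2 (12937 bases against 3321 in the canonical transcript). The order given holds on this scale only. With DMSO the order of the group means in SK-N-BE2 was ELAVL3 at 69.8 ± 16.1, PTBP1 at 53.0 ± 9.18, ELAVL4 at 26.6 ± 1.53, ELAVL2 at 9.03 ± 0.472, NOVA2 at 6.73 ± 1.38, RBFOX2 at 3.26 ± 0.863, PTBP2 at 2.75 ± 0.124 and NOVA1 at 1.22 ± 0.0294 (SD, n = 3). RBFOX3 and RBFOX1 followed at 0.0867 ± 0.0328 and 0.0420 ± 0.0507. In that order ELAVL3 and PTBP1, RBFOX2 and PTBP2, and RBFOX3 and RBFOX1 were neighbours whose libraries overlapped. In NGP, PTBP1 led at 62.8 ± 4.90, ahead of ELAVL3 at 46.9 ± 1.41, ELAVL4 at 31.7 ± 2.49, ELAVL2 at 12.1 ± 2.17 and RBFOX2 at 8.48 ± 3.16. NOVA2 at 3.63 ± 0.414, RBFOX3 at 2.72 ± 0.0776, PTBP2 at 2.65 ± 0.165, RBFOX1 at 1.65 ± 0.226 and NOVA1 at 0.462 ± 0.0462 were lower. There the libraries of ELAVL2 and RBFOX2 overlapped, as did those of RBFOX3 and PTBP2.

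**Figure D2:**
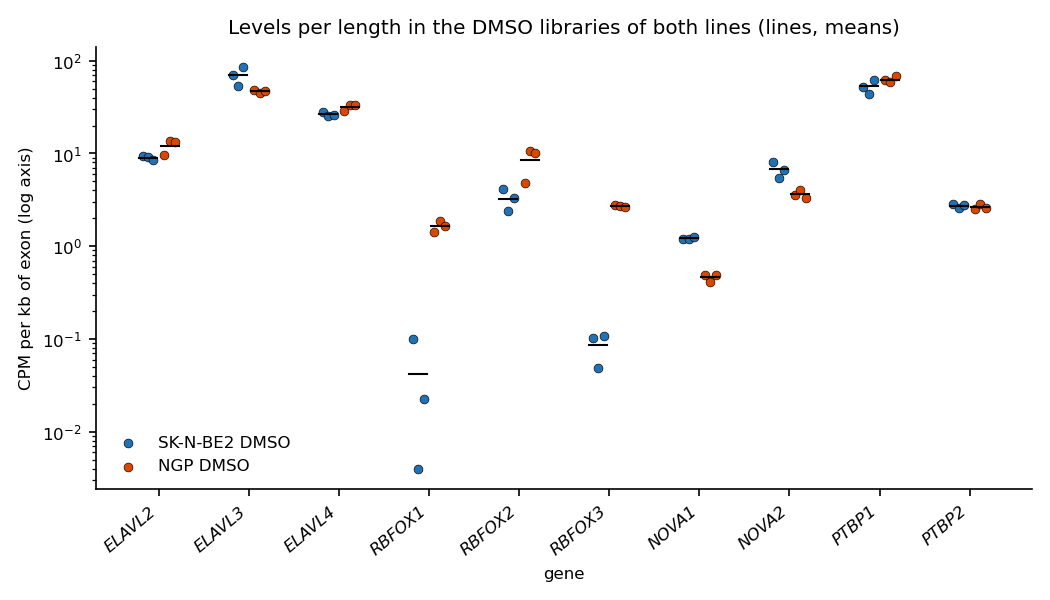
CPM per kilobase of exon (log axis) of the 10 regulators in the DMSO libraries of SK-N-BE2 (blue) and NGP (orange), 3 points a line, with the mean as a short bar. The largest gaps between the lines are those of RBFOX1 and RBFOX3, which sit below 0.11 in every SK-N-BE2 library and above 1.4 in every NGP library.

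With STM2457 in SK-N-BE2, 3 members rose and 1 fell. The neuronal RNA stabilizers ELAVL4 and ELAVL2 and the splicing factor RBFOX2 were higher, and NOVA1 was lower. ELAVL3, NOVA2, PTBP1 and PTBP2 did not pass the test. Of all 14013 genes tested in this line 54.7% were called, 26.9% higher and 27.8% lower, so the members' 4 of 10 is below the share of genes in general. The members' median log2 fold change was 0.01, against -0.02 over all genes.

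In SK-N-BE2, ELAVL4, or HuD, measured 237, 213 and 218 CPM with DMSO and 353, 376 and 356 CPM with STM2457. All treated libraries lay above all controls, and both groups were tight. The log2 fold change was 0.66 (SE 0.08, adjusted p 1.81e-05 by edgeR), a 1.58-fold rise. RBFOX2 measured 42.8, 24.9 and 34.1 CPM with DMSO and 66.0, 68.3 and 61.7 CPM with STM2457. Here the controls spread more than the treated libraries, and the groups did not overlap. Its log2 fold change of 0.91 (SE 0.15, adjusted p 0.000160 by edgeR), or 1.88-fold, was the largest of the 10 members in either line. ELAVL2 measured 48.2, 47.3 and 43.6 CPM with DMSO and 57.96, 62.3 and 60.4 CPM with STM2457, a smaller rise without overlap of 1.26-fold (log2 0.34, SE 0.08, adjusted p 0.00342 by edgeR).

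NOVA1, the first described of the NOVA splicing factors, measured 12.5, 12.3 and 12.9 CPM with DMSO and 10.6, 9.36 and 8.98 CPM after treatment of SK-N-BE2. The treated libraries were all lower, with a log2 fold change of -0.42 (SE 0.11, adjusted p 0.00639 by edgeR). Its paralogue NOVA2 measured 73.2, 48.4 and 60.0 CPM with DMSO and 59.0, 57.0 and 50.8 CPM with STM2457, and the groups overlapped (log2 fold change -0.16, SE 0.12, adjusted p 0.293 by edgeR). Without DMSO replicate 2, the lowest control, NOVA2 passed the test at -0.29 (adjusted p 0.0279 by edgeR). ELAVL3 measured 337, 253 and 407 CPM with DMSO, which enclosed its treated libraries at 350.5, 308 and 318 CPM (log2 fold change -0.07, SE 0.13, adjusted p 0.694 by edgeR). ELAVL3 shares 5.38% of its exon length with a read-through gene that was counted beside it.

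The PTBP pair, whose exchange marks neuronal differentiation, was not called in SK-N-BE2. PTBP1 measured 361, 304 and 430 CPM with DMSO and 418, 378 and 383 CPM with STM2457 (log2 fold change 0.07, SE 0.11, adjusted p 0.630 by edgeR). PTBP2 measured 37.0, 33.8 and 35.7 CPM with DMSO and 33.4, 35.8 and 37.2 CPM with STM2457 (-0.04, SE 0.09, adjusted p 0.734 by edgeR). In both genes the 2 groups overlapped, and the spread was smaller for PTBP2. RBFOX1 and RBFOX3 remained at 0.457 and 1.199 CPM or less with STM2457, levels at which 14 to 63 reads decided a value. Their log2 fold changes were -0.31 (SE 0.71, adjusted p 0.738 by edgeR) and 0.06 (SE 0.37, adjusted p 0.904 by edgeR), and that of RBFOX1 turned to 1.35 without DMSO replicate 1, so no direction is read from them.

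In NGP, which received the lower dose, PTBP1 and PTBP2 rose, and RBFOX1, RBFOX3 and NOVA2 fell, while the ELAVL genes did not pass the test. That made 5 of 10 members called, 2 higher and 3 lower, against 41.7% of all 13610 genes tested, of which 19.4% were higher and 22.2% lower. The members' median log2 fold change was -0.16, against -0.03 over all genes. The count fell to 3 without DMSO replicate 3, STM2457 replicate 1 or STM2457 replicate 3, and rose to 6 without DMSO replicate 1 or STM2457 replicate 2. Over all genes the fits with a count of 3 called 4360 of 13795, 3816 of 13781 and 3919 of 13794, in that order. The calls over all genes were 7897 of 13776 without DMSO replicate 1 and 4541 of 13803 without STM2457 replicate 2, against 5671 of 13610 with all libraries.

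PTBP1 measured 423, 404 and 470 CPM with DMSO and 589, 822 and 586 CPM with STM2457 in NGP. All treated libraries were above all controls, and replicate 2 was far above the other two. The log2 fold change was 0.60 (SE 0.15, adjusted p 0.0112 by edgeR), or 1.51-fold, and 0.44 (adjusted p 0.0229 by edgeR) without that replicate. PTBP2 measured 33, 36.8 and 33.1 CPM with DMSO and 47.1, 42.6 and 43.7 CPM with STM2457. The groups did not overlap, and the log2 fold change was 0.35 (SE 0.11, adjusted p 0.0273 by edgeR). This call was lost without DMSO replicate 3, STM2457 replicate 1 or STM2457 replicate 3, with adjusted p up to 0.132 by edgeR.

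NOVA2 measured 31.8, 36.8 and 29.5 CPM with DMSO and 22.8, 19.6 and 19.8 CPM with STM2457 in NGP. The treated libraries were all lower, and the log2 fold change was -0.68 (SE 0.13, adjusted p 0.00348 by edgeR), or 0.623 of the control level. RBFOX1 measured 14.5, 19.1 and 16.8 CPM with DMSO and 9.53, 9.88 and 11.6 CPM with STM2457, again without overlap. Its log2 fold change was -0.72 (SE 0.15, adjusted p 0.00532 by edgeR), and it was not called when all 12 libraries shared 1 fit (-0.70, adjusted p 0.149). RBFOX3 measured 27.7, 26.5 and 26.3 CPM with DMSO and 14.1, 24.6 and 14.7 CPM with STM2457. Its controls were tight while treated replicate 2 lay just below them, and the log2 fold change was -0.62 (SE 0.21, adjusted p 0.0401 by edgeR). The RBFOX3 call was lost without DMSO replicate 2 or 3, without STM2457 replicate 1 or 3, and in the fit of all 12 libraries, and it was -0.90 (adjusted p 0.00282 by edgeR) without STM2457 replicate 2.

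NOVA1, at 5.08, 4.22 and 5.02 CPM with DMSO and 3.95, 3.83 and 3.51 CPM with STM2457 in NGP, did not overlap between groups but was not called (log2 fold change -0.37, SE 0.17, adjusted p 0.108 by edgeR). The fit of all 12 libraries called it lower (-0.34, adjusted p 0.0489 by edgeR). RBFOX2 measured 50.5, 110 and 105 CPM with DMSO and 90.3, 107 and 98.3 CPM with STM2457. The controls alone spanned the treated libraries, and the log2 fold change of 0.13 (SE 0.26, adjusted p 0.713 by edgeR) became -0.15 (adjusted p 0.121 by edgeR) without DMSO replicate 1.

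For ELAVL2, the NGP controls at 49.5, 69.6 and 68.0 CPM likewise spanned the treated libraries at 57.3, 58.7 and 56.3 CPM. Its log2 fold change was -0.14 (SE 0.14, adjusted p 0.443 by edgeR), and without DMSO replicate 1 it was called lower at -0.29 (adjusted p 0.00439 by edgeR). ELAVL4 lay at 242, 279 and 278 CPM with DMSO and 267, 261 and 271 CPM with STM2457, with overlap and a log2 fold change of -0.02 (SE 0.09, adjusted p 0.863 by edgeR). ELAVL3 measured 230, 216 and 224 CPM with DMSO and 173, 257 and 176 CPM with STM2457. Its log2 fold change was -0.17 (SE 0.15, adjusted p 0.404 by edgeR), and -0.36 (adjusted p 0.0353 by edgeR) without STM2457 replicate 2, the only treated library above the controls.

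**Figure D3:**
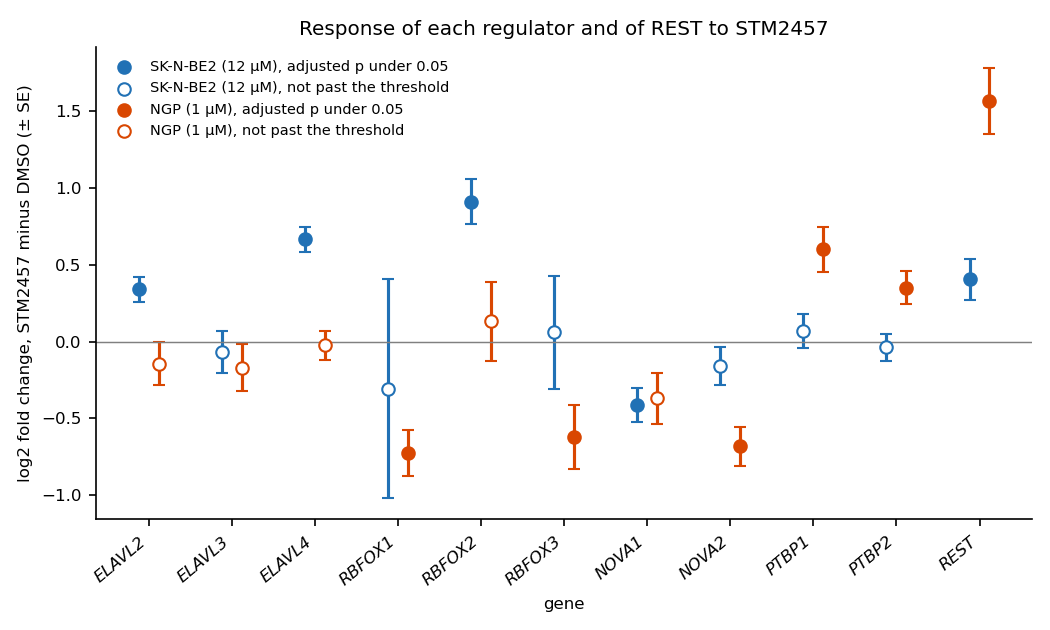
Log2 fold change of each regulator and of REST, STM2457 minus DMSO, in SK-N-BE2 (blue) and NGP (orange), with the SE of the fit as whiskers. Filled points had an edgeR adjusted p under 0.05: 4 regulators in SK-N-BE2 and 5 in NGP, with REST filled in both lines. A point filled for a single line does not by itself show that the lines differ. The difference between the responses was called for 3 of the 10 regulators. For NOVA1, filled in SK-N-BE2 only, the values were -0.42 and -0.37, and their difference was not called (-0.03, edgeR adjusted p 0.922).

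Whether the responses themselves differed was tested as the SK-N-BE2 response minus the NGP response over all 12 libraries, and 3 of the 10 members passed, 2 higher and 1 lower. Of all 14731 genes tested 30.9% passed, 17% higher and 13.9% lower, so the members' 3 of 10 is close to the share of genes in general. ELAVL4 differed by 0.70 (SE 0.12, adjusted p 0.000481 by edgeR), and it was called with each of the 12 libraries left out in turn, between 0.65 and 0.75. ELAVL2 differed by 0.49 (SE 0.16, adjusted p 0.0308 by edgeR) and PTBP2 by -0.38 (SE 0.13, adjusted p 0.0363 by edgeR). These 2 calls held in only 3 and 4 of the 12 fits without 1 library.

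For the other members the difference between responses was not called. It was 0.79 (SE 0.33, adjusted p 0.0887 by edgeR) for RBFOX2, and 1.05 (adjusted p 0.000550 by edgeR) without NGP DMSO replicate 1. The RBFOX2 difference was also called without SK-N-BE2 DMSO replicate 1 (0.97, adjusted p 0.0473 by edgeR). For NOVA2 it was 0.53 (SE 0.20, adjusted p 0.0532 by edgeR), which became 0.54 (adjusted p 0.0351 by edgeR) without NGP DMSO replicate 1. NOVA2 was also called without SK-N-BE2 DMSO replicate 1 (0.67, adjusted p 0.0148 by edgeR) and without NGP DMSO replicate 3 (0.60, adjusted p 0.0471 by edgeR). For PTBP1 it was -0.52 (SE 0.20, adjusted p 0.0657 by edgeR), and PTBP1 was called without NGP DMSO replicate 1 (-0.52, adjusted p 0.0422 by edgeR) and without SK-N-BE2 DMSO replicate 2 (-0.65, adjusted p 0.0213 by edgeR). DESeq2 called both NOVA2 and PTBP1. For NOVA1, whose log2 fold changes were -0.42 and -0.37, the difference was -0.03 (SE 0.185, adjusted p 0.922 by edgeR). RBFOX1, RBFOX3 and ELAVL3 had differences of 0.41 (SE 0.73), 0.68 (SE 0.40) and 0.11 (SE 0.23), each with an adjusted p of at least 0.216 by edgeR. The RBFOX3 difference was 0.99 (adjusted p 0.0496 by edgeR) without NGP STM2457 replicate 2, and that of RBFOX1 was 2.06 (adjusted p 0.0113 by edgeR) without SK-N-BE2 DMSO replicate 1. Each line's response also uses the DMSO libraries that set the difference between the lines described above, so the 2 sets of values are not independent.

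The make-up of each family was taken as a share of its summed CPM per kilobase of the exon length in the files. That length joins all isoforms and is 8382 bases for ELAVL4 and 4761 for ELAVL3, against 3965 and 4742 in the canonical transcripts. On this scale ELAVL3 led ELAVL2 and ELAVL4 in every library, an order that depends on the length used. In CPM, mean ELAVL4 exceeded mean ELAVL3 with STM2457 in SK-N-BE2 (362 against 325). It also did in NGP (266 against 223 with DMSO, 266 against 202 with STM2457). In SK-N-BE2 the share of ELAVL4 was 26.1%, 28.9% and 21.7% with DMSO and 33.2%, 36.9% and 35.2% with STM2457, without overlap. The share of ELAVL3 was between 60.6% and 71.2% with DMSO, against 53.1% to 58% with STM2457. In NGP the share of ELAVL4 overlapped between groups, at between 33.3% and 36.1% with DMSO, against 32.3% to 40.3% with STM2457.

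For the RBFOX family the exon length in the files is 10193 bases for RBFOX1, 10413 for RBFOX2 and 9873 for RBFOX3. The canonical transcripts have 4884, 7212 and 3163 bases, so the shares depend on the length used. On the scale of the files, RBFOX2 held between 95.3% and 98.4% in all 6 SK-N-BE2 libraries. In NGP it held 53.4%, 69.8% and 70.0% with DMSO and 78.6%, 74.8% and 78.2% with STM2457, again without overlap, while RBFOX1 went from between 11.5% and 15.6% to between 7.07% and 9.46%. The share of RBFOX3 overlapped between the NGP groups, at between 17.8% and 30.9% with DMSO, against 12.3% to 18.2% with STM2457. The low RBFOX2 share of 53.4% is that of DMSO replicate 1. NOVA2 held between 81.9% and 90.9% of the NOVA sum in all libraries. The summed NOVA level in NGP was between 3.77 and 4.50 CPM per kilobase with DMSO, against 2.54 to 2.91 with STM2457.

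PTBP1 exceeded PTBP2 in every library, both in CPM and per length. The exon length in the files is 6883 bases for PTBP1 and 12937 for PTBP2, against 3206 and 3321 in the canonical transcripts. The size of the ratio per length therefore depends on the length used. The ratio was 18.3, 16.9 and 22.7 with DMSO and 23.5, 19.8 and 19.3 with STM2457 in SK-N-BE2. In NGP it was 24.1, 20.7 and 26.6 with DMSO and 23.5, 36.3 and 25.2 with STM2457. In both lines the ratio overlapped between the groups. STM2457 replicate 1 of SK-N-BE2 and STM2457 replicate 2 of NGP lay above all controls of their line. PTBP1 and PTBP2 share sequence, and reads that map to more than 1 place were not counted.

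**Figure D4:**
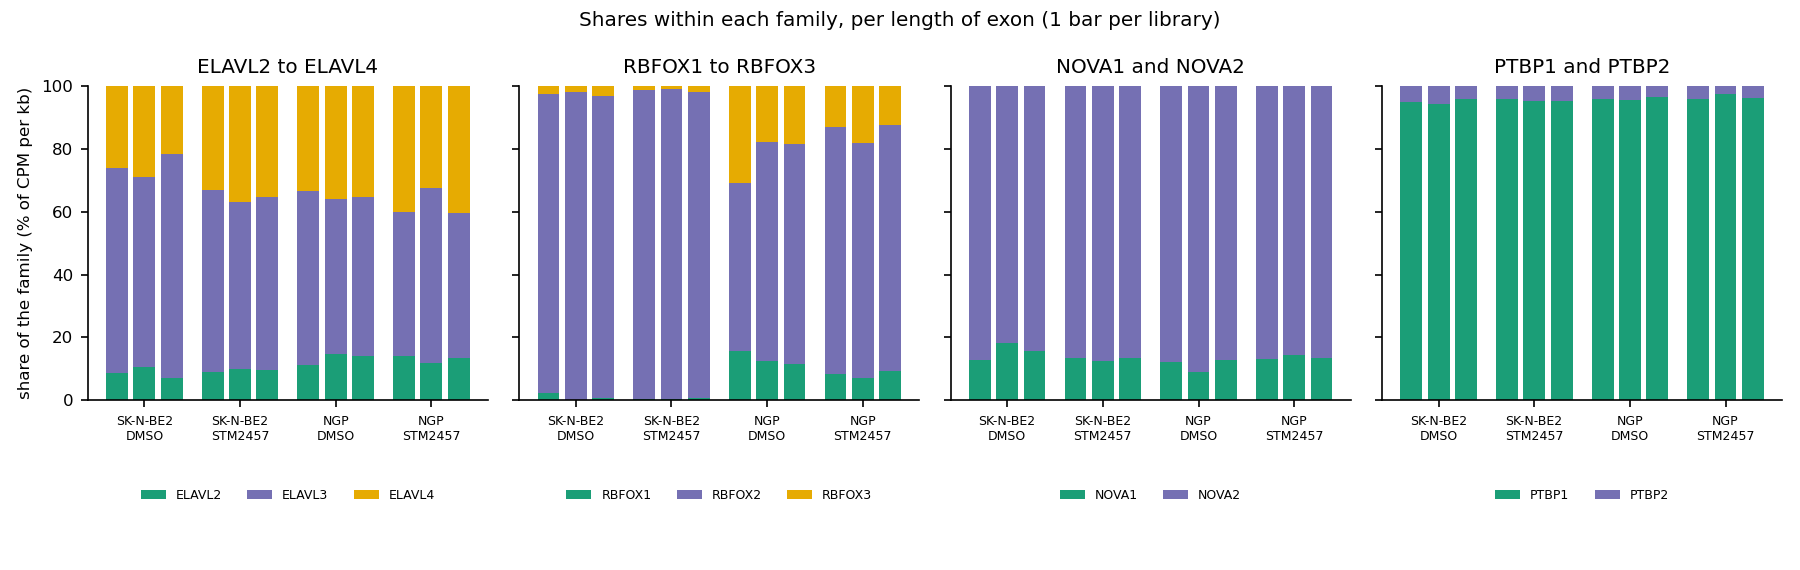
Share of each family's summed CPM per kilobase (%) held by each paralogue, 1 stacked bar per library and 3 bars per group. PTBP1 holds at least 94.4% of its pair in all 12 bars, and RBFOX1 with RBFOX3 is visible as a sizeable share only in the NGP bars.

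REST, the repressor that keeps neuronal genes off outside neurons, is placed upstream of several regulators of this kind in textbook accounts. In SK-N-BE2 it measured 6.43, 5.59 and 5.32 CPM with DMSO and 7.35, 8.20 and 8.01 CPM with STM2457. In NGP it measured 4.27, 6.16 and 7.90 CPM with DMSO and 20.01, 17.4 and 17.6 CPM with STM2457. The groups did not overlap in either line, and the rise was much larger in NGP. The log2 fold changes were 0.40 (SE 0.13, adjusted p 0.0206 by edgeR) and 1.56 (SE 0.21, adjusted p 0.000736 by edgeR), and the responses differed by -1.14 (SE 0.26, adjusted p 0.00397 by edgeR). In SK-N-BE2 the REST call was lost without DMSO replicate 3, STM2457 replicate 2 or STM2457 replicate 3, with adjusted p up to 0.0721 by edgeR. ELAVL1, the HuR paralogue found in most cell types, did not pass the test in either line, at 0.07 (SE 0.08, adjusted p 0.466 by edgeR) and 0.09 (SE 0.09, adjusted p 0.447 by edgeR) on the log2 scale.

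A list of 44 related genes was examined beside the members: paralogues and partners, other splicing regulators, RNA-binding proteins of translation and transport, transcripts tied to a member, and REST. In SK-N-BE2, 41 were tested and 18 called, 13 higher and 5 lower, with a median log2 fold change of 0.17, against 54.7% called over all genes. In NGP, 40 were tested and 15 called, 4 higher and 11 lower, with a median of -0.14, against 41.7% over all genes. Without NGP DMSO replicate 1 the NGP count was 28, beside a rise to 7897 of 13776 over all genes. The difference between the responses was called for 12 of 41, 10 higher and 2 lower, against 30.9% over all genes. The lines with DMSO differed in 26 of 41, 7 higher and 19 lower in SK-N-BE2, against 71.1% over all genes. CELF6, RAVER1, CPEB1, SYNCRIP and MBNL1 share between 15.9% and 93.3% of their exon length with other genes, and their counts are uncertain.

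Of the 15 other splicing regulators tested in SK-N-BE2, 7 were called, 5 higher and 2 lower, against 54.7% called over all genes. CELF2, which regulates splicing in brain and muscle, went from between 8.55 and 12.4 CPM to between 35.8 and 43.2 CPM, a log2 fold change of 1.91 (SE 0.13, adjusted p 9.87e-08 by edgeR). HNRNPLL, known for exon choice in lymphocytes, went from between 12.9 and 15.4 CPM to between 39.1 and 43.1 CPM (1.51, SE 0.10, adjusted p 6.06e-08 by edgeR). KHDRBS3, a relative of the splicing factor SAM68, rose by 0.67 (SE 0.08, adjusted p 1.54e-05 by edgeR). CELF4 and SRRM3, the second a regulator of neuronal microexons, fell, with log2 values of -0.58 and -0.39 (adjusted p 0.000158 by edgeR and 0.00688). In these 5 genes the groups did not overlap. They were picked as called genes with the largest changes, so this adds no support to their calls.

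In NGP, 5 of 14 tested splicing regulators were called, 1 higher and 4 lower, against 41.7% called over all genes. CELF5, a neuronal CELF protein, went from between 11.9 and 15.9 CPM to between 3.17 and 4.83 CPM (log2 fold change -1.67, SE 0.21, adjusted p 0.000461 by edgeR). MBNL3, of the muscleblind family, went from 48.4, 91.3 and 90.5 CPM to 129, 122 and 126 CPM (0.69, SE 0.22, adjusted p 0.0336 by edgeR), and its low control is again DMSO replicate 1. The MBNL3 value was 0.44 (adjusted p 0.000242 by edgeR) without that library, and leaving out any 1 STM2457 replicate ended the call (adjusted p up to 0.0934 by edgeR). The responses of CELF2, CELF5, HNRNPLL and KHDRBS3 differed between the lines by 2.39, 2.20, 1.68 and 1.22 on the log2 scale, each with an adjusted p of at most 3.39e-05 by edgeR. KHDRBS3, higher in SK-N-BE2, was called lower in NGP (log2 fold change -0.54, adjusted p 0.00343 by edgeR). CELF4 was called lower in NGP as well (-0.60, adjusted p 0.0143 by edgeR), and the difference of its responses was not called (0.03, adjusted p 0.936 by edgeR).

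Among the 14 RNA-binding proteins of translation, transport and stability, 6 were called in SK-N-BE2, 4 higher and 2 lower, and 4 in NGP, 1 higher and 3 lower. CPEB2, which controls translation through the poly(A) tail, fell in SK-N-BE2, at a log2 value of -0.57 (SE 0.13, adjusted p 0.00255 by edgeR). FXR1, of the fragile X family, rose in NGP by 0.28 (SE 0.09, adjusted p 0.0279 by edgeR), a call that held in 2 of the 6 fits without 1 library. Of the 5 paralogues and partners, 1 was called in SK-N-BE2, and it was higher, and 0 in NGP, against the same shares over all genes. The called gene was MATR3, a partner of PTBP1, named after its value was seen. Of these 5 genes in NGP, 2 had an unadjusted edgeR p under 0.05, and DESeq2 called 2.

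Of the 6 transcripts tied to a member analysed, 3 were called in SK-N-BE2, 2 higher and 1 lower, and 5 in NGP, 1 higher and 4 lower. The shares over all genes were 54.7% in SK-N-BE2 and 41.7% in NGP. GAP43, a growth cone protein whose messenger RNA HuD binds and stabilizes, went from 40.7, 46.2 and 42.1 CPM to 112, 118 and 115 CPM in SK-N-BE2. In NGP it went from 80.0, 56.2 and 60.7 CPM to 135, 133 and 137 CPM. The rise was present in both lines, with log2 fold changes of 1.38 (SE 0.08, adjusted p 3.14e-08 by edgeR) and 1.02 (SE 0.14, adjusted p 0.000671 by edgeR), while ELAVL4 rose in SK-N-BE2 and was not called in NGP. The difference between the GAP43 responses was not called (0.38, SE 0.16, adjusted p 0.0904 by edgeR).

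CDKN1A, the p21 cell cycle inhibitor whose transcript ELAVL proteins also bind, fell in both lines, at a log2 fold change of -2.12 (SE 0.10, adjusted p 2.79e-09 by edgeR) in SK-N-BE2 and -1.41 (SE 0.10, adjusted p 3.13e-05 by edgeR) in NGP. MAPT, the tau gene, measured 14.5, 18.2 and 18.6 CPM with DMSO and 3.76, 5.61 and 3.98 CPM with STM2457 in NGP (log2 fold change -1.97, SE 0.19, adjusted p 0.000130 by edgeR). In SK-N-BE2 MAPT was higher by 0.26 (SE 0.08, adjusted p 0.0182 by edgeR), and its responses differed by 2.24 (SE 0.20, adjusted p 2.98e-06 by edgeR). ACHE, acetylcholinesterase, fell in NGP from between 1.28 and 1.51 CPM to between 0.0986 and 0.214 CPM (-3.12, SE 0.37, adjusted p 0.000364 by edgeR), and its responses differed by 3.62 (SE 0.44, adjusted p 3.71e-05 by edgeR).

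**Figure D5:**
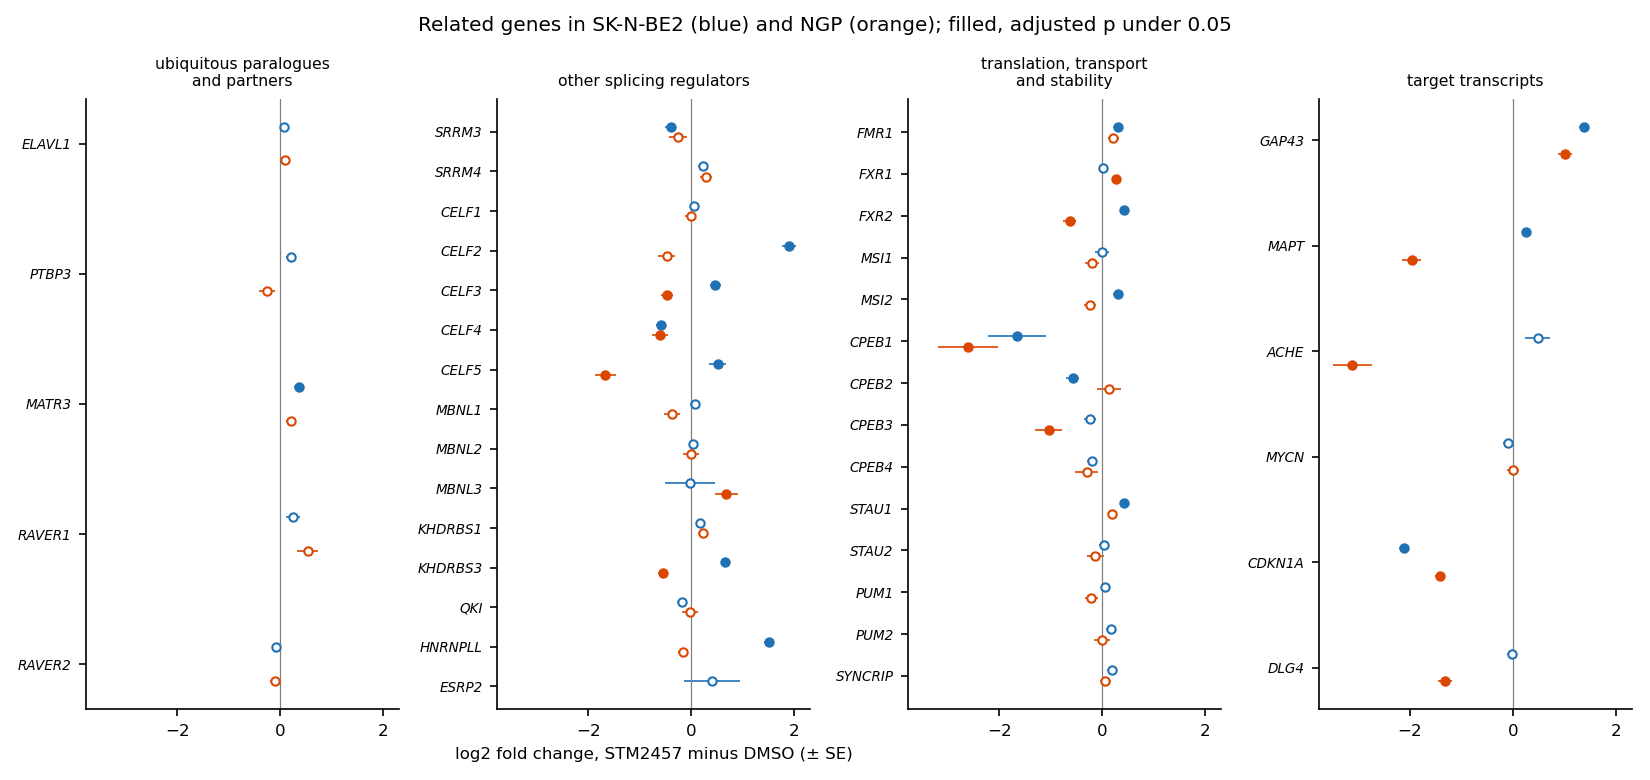
Log2 fold change (x axis, with SE) of the tested genes of 4 related lists, STM2457 minus DMSO, in SK-N-BE2 (blue) and NGP (orange), with filled points at an edgeR adjusted p under 0.05. GAP43 is filled above 0 and CDKN1A below 0 in both lines, while CELF2 and HNRNPLL are filled only in SK-N-BE2 and ACHE only in NGP.

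Likeness of pattern was measured as Pearson's r of log2 CPM over the 12 libraries, with every other tested gene, for the 3 members with the largest response in either line. For RBFOX2 the highest were ADCY7 (r 0.994), CASP8AP2 (0.988) and ACACA (0.985). For NOVA2 they were USP27X (0.980), SNAP91 (0.975) and LAMA5 (0.974). For RBFOX1 they were SMARCA1 (0.984), LRRK1 (0.984) and ZNF33B (0.979). The 12 libraries share a line and a sequencing run in 2 sets of 6, so these values mix the difference between the lines with the responses. How much each adds was not tested. For ADCY7 the log2 fold change was 0.92 (SK-N-BE2) and -0.02 (NGP), beside 0.91 and 0.13 for RBFOX2. SNAP91 had -0.12 and -0.69 beside -0.16 and -0.68 for NOVA2, and LRRK1 had 0.36 and -0.15 beside -0.31 and -0.72 for RBFOX1.

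The members lie on 7 chromosomes (GRCh38, as in the files). The PTBP genes are on chromosome 19 (PTBP1, 797075 to 812327, plus strand) and chromosome 1 (PTBP2, 96721665 to 96823738, plus strand). ELAVL4 is on chromosome 1 (50024029 to 50203786, plus strand), ELAVL2 on chromosome 9 (23690104 to 23826337, minus strand) and ELAVL3 on chromosome 19 (11451326 to 11481046, minus strand). RBFOX1 is on chromosome 16 (5239802 to 7713340, plus strand), RBFOX2 on chromosome 22 (35738736 to 36028824, minus strand) and RBFOX3 on chromosome 17 (79089345 to 79516148, minus strand). NOVA1 is on chromosome 14 (26443090 to 26598033, minus strand) and NOVA2 on chromosome 19 (45933734 to 45973865, minus strand).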

How the data were processed

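Polyadenylated RNA was sequenced as 12 libraries, which were assigned to groups by their titles. Reads over exons of GENCODE 33 protein-coding genes were counted by the authors with featureCounts 2.0.5, unstranded, leaving out multi-mapping reads and not joining the mates of a pair, per the file headers. The deposited values are whole-number counts, not normalized. The build GRCh38 and FastQC 0.11.5, Trimmomatic 0.36, HISAT2 2.1.0 and Subread 1.5.3 are named per the submitters' processing notes, whose version of the counter differs from that in the headers. Unstranded counting can mix reads of genes that overlap on opposite strands.

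The counts were tested with edgeR 4.0.16 in R 4.3.3 (filterByExpr with a minimum count of 10, TMM factors, quasi-likelihood F test). Responses were fitted on the 6 libraries of a line and contrasts between lines on all 12. P-values were adjusted over all genes by Benjamini-Hochberg, with a threshold of 0.05. All 10 members passed the filter in each fit. Standard errors were taken as the absolute log2 fold change over the root of F. CPM is given on a TMM scale common to all libraries, and values per kilobase divide it by the exon length in the files. Changes are relative, since the labels name no spike-in.

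The members and lists were chosen with earlier results of these data known. From the lists, 1 related gene and 2 cell type markers are not reported here and were left out of every count over a list. Genes named beside the members are REST, ELAVL1 and, per line, the called related genes with the 4 largest rises and 4 largest falls at a mean of at least 1 CPM. Alternatives were other scalings and filters, a replicate block, DESeq2 1.42.0, counts halved and rounded up, 1 joint fit, and leaving out each library. For REST and the related genes these alternatives were added after seeing the data. In simulated data with 200 genes moved by 1 on the log2 scale, 95.5% of those tested were called for SK-N-BE2 (13994 genes run), 96% for NGP (13615), 64.8% for the difference of responses (14677) and 93.5% for the lines with DMSO (14482). The simulation gave every gene the same spread and held no outlying library, and every called member response to STM2457 was smaller than 1. Its shares therefore do not give the power for the responses reported here. Counting error at 47242379 to 58159937 reads a library limits mainly RBFOX1 and RBFOX3 in SK-N-BE2, and 3 replicates a group limit the rest.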

Additional observations from a re-analysis of the deposited data

Results flagged for a closer look

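ELAVL4, ELAVL2 and PTBP2 responded differently in the 2 lines by a test of the difference itself, the SK-N-BE2 response minus the NGP response on the log2 scale. ELAVL4 differed by 0.70 (SE 0.12, edgeR adjusted p 0.000481), with 3 of 3 treated SK-N-BE2 libraries above all controls and overlapping groups in NGP. ELAVL2 differed by 0.49 (SE 0.16, edgeR adjusted p 0.0308), with the same pattern of overlap. PTBP2 differed by -0.38 (SE 0.13, edgeR adjusted p 0.0363), with 3 of 3 treated NGP libraries above all controls and overlapping groups in SK-N-BE2. The ELAVL4 difference was called in 12 of 12 fits without 1 library, those of ELAVL2 and PTBP2 in 3 and 4 of 12, and the replicate block lost the latter pair (edgeR adjusted p 0.0540 and 0.0867). Line, dose and sequencing run cannot be told apart in these differences.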

How the results depend on the processing

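The difference of responses was called for 3 members in the fit described, 1 with the replicate block, 5 with DESeq2 and between 1 and 6 when each library was left out, and of these 3 only the ELAVL4 difference was called in every alternative run. In NGP between 3 and 6 members and between 11 and 28 related genes were called when each library was left out. The other counts stayed within 1.5 times of those given. Over all genes in NGP between 3816 and 7897 were called when each library was left out, against 5671. The difference of responses was called over all genes for 4549 in the fit described, 4025 with the replicate block and 5270 with DESeq2. When each library was left out, it was called for between 3701 and 6274. Deviations of same-numbered libraries from their group means correlated between -0.074 and 0.088, against -0.15 to 0.119 for differently numbered ones. With 3 libraries a group, these values cannot settle whether replicate numbers pair the libraries. The block also lost the NGP call of PTBP2 (edgeR adjusted p 0.0709), the NGP call of FXR1 (0.0825) and the ELAVL2 and PTBP2 differences (0.0540 and 0.0867), and it turned the uncalled RBFOX1 response in SK-N-BE2 to 0.16. The joint fit turned the uncalled ELAVL4 response in NGP to 0.002, lost SRRM3 and REST in SK-N-BE2 (edgeR adjusted p 0.0768 and 0.0629), and called NOVA1 lower in NGP (-0.34, edgeR adjusted p 0.0489). Upper-quartile scaling lost the ELAVL2 difference (edgeR adjusted p 0.0548) and gained that of PTBP1 (-0.59, 0.0372), and no filter lost that of PTBP2 (0.0774) and gained that of NOVA2 (0.56, 0.0423). DESeq2 gained the NOVA2 and PTBP1 differences (0.52 and -0.53, adjusted p 0.0430 and 0.0361). Values not called in the fit described that changed sign when a library was left out ranged as follows. In SK-N-BE2 the log2 fold change of ELAVL3 ran from -0.23 to 0.10, PTBP1 from -0.0431 to 0.20, PTBP2 from -0.07 to 0.0069, RBFOX1 from -0.82 to 1.35 and RBFOX3 from -0.22 to 0.24. In NGP that of ELAVL4 ran from -0.09 to 0.0175 and RBFOX2 from -0.15 to 0.32. For the difference of responses ELAVL3 ran from -0.0637 to 0.33, NOVA1 from -0.11 to 0.0458 and RBFOX1 from -0.12 to 2.06 (called at 2.06, edgeR adjusted p 0.0113), and REST between the lines with DMSO from -0.26 to 0.15. The cause of these changes was not tested. No call of a member in SK-N-BE2 was lost under any alternative run. Fits without 1 library leave 2 in a group.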
